A study of Mus musculus with 6 samples.

Results

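The Schlafen family was examined in SL4 cells, a luciferase-expressing mouse colorectal cancer (CRC) line, with and without SEMA6A overexpression. Its members here were Slfn1, Slfn2, Slfn3, Slfn4, Slfn5, Slfn8 and Slfn9, taken by gene symbol as 7 of the 53700 genes listed. The comparison asked which of these genes differed in level when SEMA6A was overexpressed. The pLV-SEMA6A group was a stable line made with a lentivirus for SEMA6A, and 3 of its libraries were compared with 3 libraries of pLV-Control cells. The methods describe 1 such line, so an effect of SEMA6A and a difference between cell lines cannot be told apart. The sources differ on the controls, which the methods call SL4 cells and the results a pLV-Control line, so whether they carried an empty vector is unclear. Both groups were SL4 cells with no other treatment named in the labels. Nothing says that the libraries of a group came from separate cultures, so p-values measure only the spread between these libraries, which may be technical.

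Schlafen genes lie in 1 cluster in the mouse genome and are known as interferon-induced genes. Short members such as Slfn1 and Slfn2 hold the core region that the family shares, Slfn3 and Slfn4 are of middle length, and the long members Slfn5, Slfn8 and Slfn9 add a helicase-like region. Members are known to act on tRNA and translation, to restrain cell growth, and to limit viruses. The mouse has no direct copy of human SLFN11, which stalls replication in cells under DNA damage, and Slfn8 and Slfn9 are its nearest mouse relatives.

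The promoter sequences of Slfn8 and Slfn9 are shown because these neighbours look alike at their starts and yet differed in the RNA-seq. They are RefSeq sequences on GRCm38.p6, which is not the mm39 build that the submitters' processing notes name. Each covers 250 bases before to 50 bases after an annotated start, written 5′ to 3′ on the gene's strand, and all 7 members had such a window. Capitals mark the core of the interferon-stimulated response element (ISRE), searched as TTTCNNTTTC on both strands. The window of Slfn8 is chr11:83020761-83021060 on the minus strand, and that of Slfn9 is chr11:82991781-82992080 on the minus strand.
Slfn8: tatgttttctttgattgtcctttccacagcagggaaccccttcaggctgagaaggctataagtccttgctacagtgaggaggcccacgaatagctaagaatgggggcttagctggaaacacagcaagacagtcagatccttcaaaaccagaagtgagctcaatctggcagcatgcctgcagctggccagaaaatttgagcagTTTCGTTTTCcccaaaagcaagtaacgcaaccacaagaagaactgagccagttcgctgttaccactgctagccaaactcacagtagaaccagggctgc
Slfn9: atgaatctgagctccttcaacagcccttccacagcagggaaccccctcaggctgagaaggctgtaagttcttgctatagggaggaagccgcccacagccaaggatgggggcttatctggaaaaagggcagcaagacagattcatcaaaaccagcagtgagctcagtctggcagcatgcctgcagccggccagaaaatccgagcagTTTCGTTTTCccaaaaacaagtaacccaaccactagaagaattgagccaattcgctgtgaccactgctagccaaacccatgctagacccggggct
The same letters stood 48 bases before the start of Slfn8 and 45 bases before that of Slfn9. A further annotated start of Slfn8 had an overlapping window that held these same bases, there 136 bases before the start. Over the whole window, 80.8% of the aligned columns of Slfn8 and Slfn9 were identical, while the other pairs of members ranged from 46.5% to 53.0%. The ISRE core was found in 3 of the 7 members, the third being Slfn5, and in 3.99% of all 27025 genes with a window. Without its last base, the core (TTTCNNTTT, which every match of the core also matches) was also found in Slfn1 and Slfn4. This shorter form was found in 12.1% of all genes with a window. The gamma-activated site, TTCNNNGAA, was found in 0 of the 7 members and in 9.55% of all genes with a window.

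The windows of Slfn1, Slfn2, Slfn3 and Slfn4 had another run in common, ACTTCCTGG, which is shown with 10 bases on each side because it sets these members apart from Slfn5, Slfn8 and Slfn9. The run was found by comparing these windows with each other and was then counted elsewhere, on both strands, so its presence in the 4 members is no test.
Slfn1: gatgtctcacACTTCCTGGagtgacatca
Slfn2: cagggctttcACTTCCTGGagggtgacag
Slfn3: ggatgacagaACTTCCTGGgggagggact
Slfn4: ttccggttatACTTCCTGGagtgacgaaa
It began between 42 bases (Slfn3) and 74 bases (Slfn1) before the start, and it occurred in 0.999% of all genes with a window. The windows lie at chr11:83116570-83116869 for Slfn1, chr11:83064862-83065161 for Slfn2, chr11:83191080-83191379 for Slfn3 and chr11:83174936-83175235 for Slfn4, all on the plus strand of GRCm38.p6. A match of letters is a description and shows no binding.

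Expression was deposited as TPM, a transcript abundance scaled by transcript length and by the library total, so that levels of different genes can be compared within a library. TPM keeps no sequencing depth, so the reads behind a value and its detection limit are unknown. Groups were compared with limma on log2(TPM + 1), a scale that understates the change of low genes. The fit covered the 12510 genes that averaged 1 TPM or more, and a differentially expressed gene (DEG) was one whose adjusted p was under 0.05 and whose log2 fold change exceeded 0.5 in either direction. Of these genes, 1347 (10.8%) were downregulated DEGs and 640 (5.12%) were upregulated DEGs. After centring of the libraries on their medians, the split became 961 lower and 1002 higher. Sema6a itself reached 98.7, 118 and 112 TPM in the lentiviral line and was listed at 0 without it. The defining markers of colon epithelium were nearly absent from these CRC cells. Epcam, Cdx1 and Cdx2 were listed at 0 in every library, and the 10 markers together reached 1.91 to 2.82 TPM in pLV-Control and 0.530 to 1.33 TPM in pLV-SEMA6A, with Lgals4 the highest.

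Of the 7 members, 6 were above 0 in at least 1 library and 3 (Slfn3, Slfn8 and Slfn9) passed the filter. Slfn8 was the 1 DEG and was downregulated, against a background of 10.8% of all genes. Slfn8 fell 3.57-fold, its close relative Slfn9 was at 0.850 times its control level, and Slfn3 at 1.22 times. Slfn2 was at about 1 TPM in pLV-Control and listed at 0 in pLV-SEMA6A. In bulk RNA, fewer cells that express a gene and less RNA per cell cannot be told apart.

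**Figure D1:**
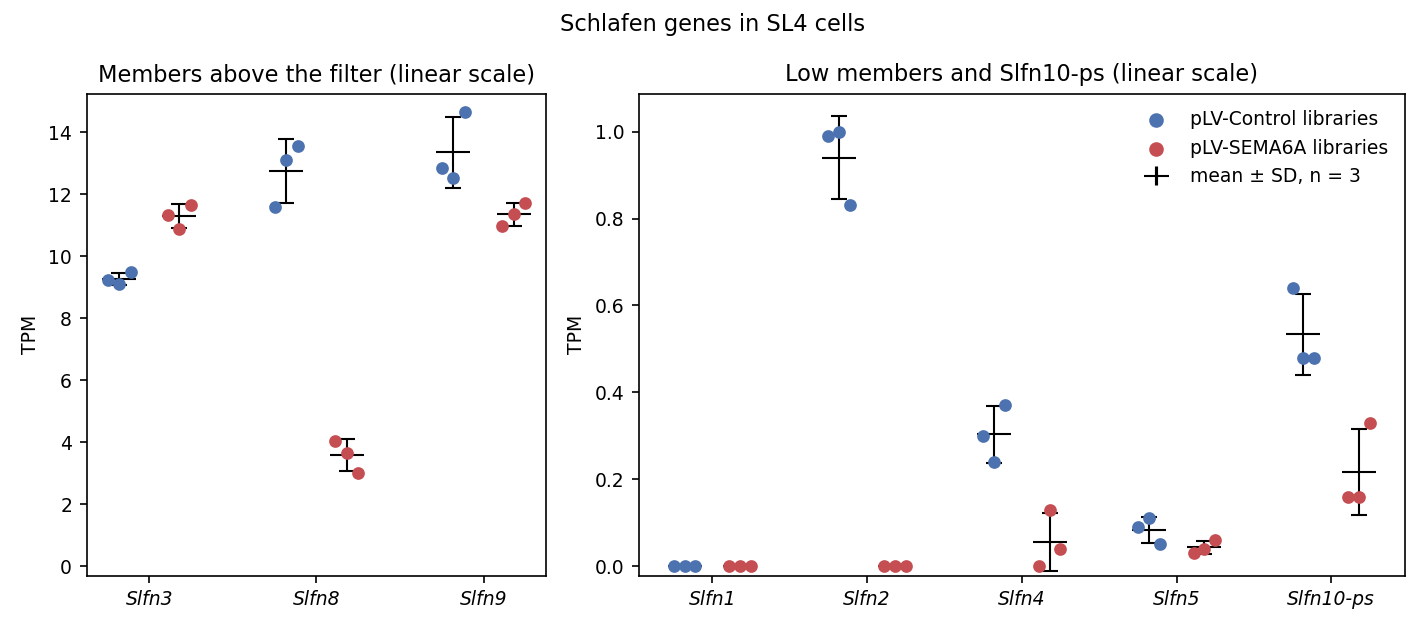
Level of each Schlafen gene in TPM on linear axes, with 1 point per library and the mean ± SD (n = 3) of each group. Slfn8 lies at 11.6 TPM or more in pLV-Control and at 4.04 TPM or less in pLV-SEMA6A, Slfn3 is the 1 member with higher points in pLV-SEMA6A, and Slfn2 is at 0 in every pLV-SEMA6A library.

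Slfn8, a long member with a helicase-like region, was at 11.6, 13.1 and 13.6 TPM in control libraries, against 4.04, 3.66 and 3.02 TPM with SEMA6A. The highest pLV-SEMA6A library lay far below the lowest pLV-Control library, and groups did not overlap in 58.5% of all genes tested. On average Slfn8 went from 12.8 ± 1.03 to 3.57 ± 0.515 TPM (SD, n = 3 each). limma put the log2 fold change at −1.59 with a standard error of 0.11 and a 95% interval from −1.85 to −1.33 (adjusted p = 7.95e-05). The exact permutation test on Slfn8 alone (two-sided) reached p = 0.1, its lower limit with 3 libraries a group. Of all 12510 genes, 153 had a lower log2 fold change.

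Slfn9, the neighbour of Slfn8 on the same strand, was at 12.86, 12.53 and 14.67 TPM in control libraries, against 10.98, 11.36 and 11.72 TPM with SEMA6A. The groups did not overlap, as was true of 58.5% of all genes tested. Mean levels were 13.4 ± 1.15 without and 11.4 ± 0.370 TPM with SEMA6A (SD, n = 3 each). In limma the difference on the log2 scale was −0.21 with a standard error of 0.07 (adjusted p = 0.0495). Its 95% interval ran from −0.39 to −0.04, so a fall as large as that of Slfn8 lay outside it. The adjusted p stood at the edge of the threshold and rose to between 0.0518 and 0.129 when any 1 of the 6 libraries was left out, and to 0.219 when libraries were centred on their median. Slfn9 was not a DEG in the reported fit, and its adjusted p did not stay under 0.05 in these alternatives.

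The contrast between the neighbours was measured within each library, where scaling cancels. The ratio of Slfn8 to Slfn9 was 0.902, 1.05 and 0.925 in pLV-Control and 0.368, 0.322 and 0.258 in pLV-SEMA6A. Slfn8 thus went from about the level of Slfn9 to at most 0.368 of it. On the log2 scale the ratio differed by −1.61 between the groups (exact permutation test, two-sided, p = 0.1, the smallest possible).

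Reads can be divided between these genes. Of the stretches of 31 bases in Slfn8 transcripts of GENCODE M21, 19.1% also occur in Slfn9 and 18.7% in Slfn10-ps, and 26.8% occur in any other gene. The share of Slfn9 stretches in other genes was 23.6%. RSEM, named in the submitters' processing notes, assigns shared reads by estimate, so part of the level of each gene is uncertain. The sum of Slfn8 and Slfn9, which a division of reads between the 2 changes only through their lengths, was 24.5, 25.6 and 28.2 TPM in control libraries, against 15.0, 15.0 and 14.7 TPM with SEMA6A. In a fit with this sum in place of the 2 genes, chosen after seeing the data, it fell by 0.77 on the log2 scale, with a standard error of 0.06 (adjusted p = 0.000148 from limma).

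Slfn3, a member of middle length that has been studied in the differentiation of gut epithelium, was at 9.24, 9.11 and 9.49 TPM in control libraries, against 11.3, 10.9 and 11.7 TPM with SEMA6A. All pLV-SEMA6A libraries lay above all pLV-Control libraries, and groups did not overlap in 58.5% of all genes tested. Mean levels were 9.28 ± 0.193 without and 11.3 ± 0.396 TPM with SEMA6A (SD, n = 3 each), a ratio of 1.22. In limma the difference on the log2 scale was 0.26 with a standard error of 0.06 and a 95% interval from 0.12 to 0.39 (adjusted p = 0.0101). Slfn3 passed the adjusted threshold but not the minimum fold change, as Slfn9 did, and 47.6% of all genes tested had an adjusted p under 0.05. The adjusted p of Slfn3 stayed between 0.00307 and 0.0360 over the alternatives tried. Of the 31-base stretches of Slfn3, 15.1% also occur in Slfn4 and 10.8% in Gm11427, a pseudogene of the cluster.

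**Figure D2:**
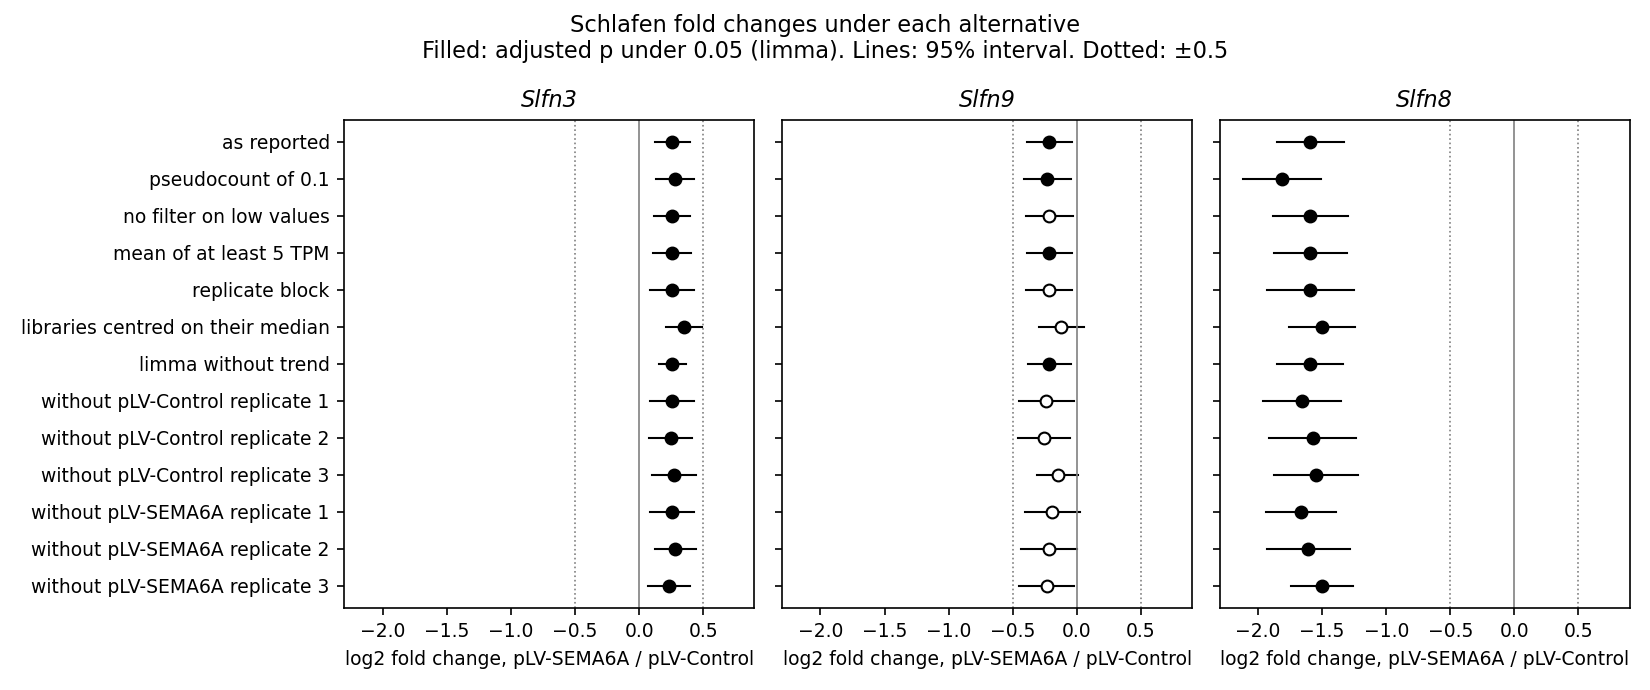
The log2 fold change (points) with its 95% interval (lines) of Slfn3, Slfn9 and Slfn8 in the reported fit and under each alternative. Filled points had an adjusted p under 0.05 from limma, and dotted lines mark the minimum fold change of 0.5. Slfn8 stays between −1.81 and −1.50, Slfn3 stays filled throughout, and Slfn9 is open in 9 of the 12 alternatives.

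The low members were below the filter in the reported fit. Slfn2, which binds tRNA and keeps T cells in a resting state, was at 0.990, 1.00 and 0.830 TPM in pLV-Control and was listed at 0 in each pLV-SEMA6A library. Its mean over all libraries was 0.470 TPM. A value of 0 in a table of TPM can be a failed estimate, so no fold change is given. In a fit without the filter on low values, which covered 24518 genes, Slfn2 had an adjusted p of 0.000281 from limma and was a downregulated DEG, as were 5.58% of the genes in that fit. With Slfn8, 2 of the 6 members in that fit were downregulated DEGs. Other genes hold 10.3% of the 31-base stretches of Slfn2, mainly Slfn4.

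Slfn4, which is known from activated myeloid cells, was at 0.300, 0.240 and 0.370 TPM in control libraries, against 0, 0.130 and 0.0400 TPM with SEMA6A. The groups did not overlap at these low levels, as was true of 58.5% of the genes that passed the filter. For genes below the filter this share was not counted. In the fit without the filter its adjusted p was 0.0225 from limma, with a log2 fold change of −0.30. Slfn5, a long member with a helicase-like region, was at 0.09, 0.11 and 0.05 TPM in control libraries, against 0.03, 0.04 and 0.06 TPM with SEMA6A. Its groups overlapped, and its adjusted p was 0.368 from limma in the same fit. Slfn1, the founding short member, was listed at 0 in all 6 libraries.

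The other genes with a Schlafen name were low as well. The pseudogene Slfn10-ps was at 0.640, 0.480 and 0.480 TPM in control libraries, against 0.160, 0.160 and 0.330 TPM with SEMA6A. In the fit without the filter its adjusted p was 0.0387 from limma, again with no share of all genes to set beside it. Slfn9 holds 23.7% and Slfn8 21.6% of its 31-base stretches. Slfn14 reached at most 0.0900 TPM, Slfnl1 at most 0.0400 TPM, and Slfn5os, on the strand opposite Slfn5, was listed at 0 throughout.

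The order of levels within the family changed between the groups. In pLV-Control it was Slfn9, Slfn8, Slfn3, Slfn2, Slfn4, Slfn5 and Slfn1, and the ranges of Slfn9 and Slfn8 overlapped while each lay above that of Slfn3. In pLV-SEMA6A the ranges of Slfn9 and Slfn3 overlapped, Slfn8 came next and lay below both, and the rest were at 0.130 TPM or less. Summed over the 7 members, the family reached 35.1, 36.1 and 39.0 TPM in control libraries, against 26.4, 26.1 and 26.5 TPM with SEMA6A. Slfn8 made up 33.1% to 36.3% of this sum in pLV-Control and 11.4% to 15.3% in pLV-SEMA6A. The share of Slfn3 went from between 24.3% and 26.3% to between 41.7% and 44.0%. A share also rises when the sum falls. That of Slfn9, whose mean level was lower in pLV-SEMA6A, went from between 34.7% and 37.6% to between 41.6% and 44.2%.

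**Figure D3:**
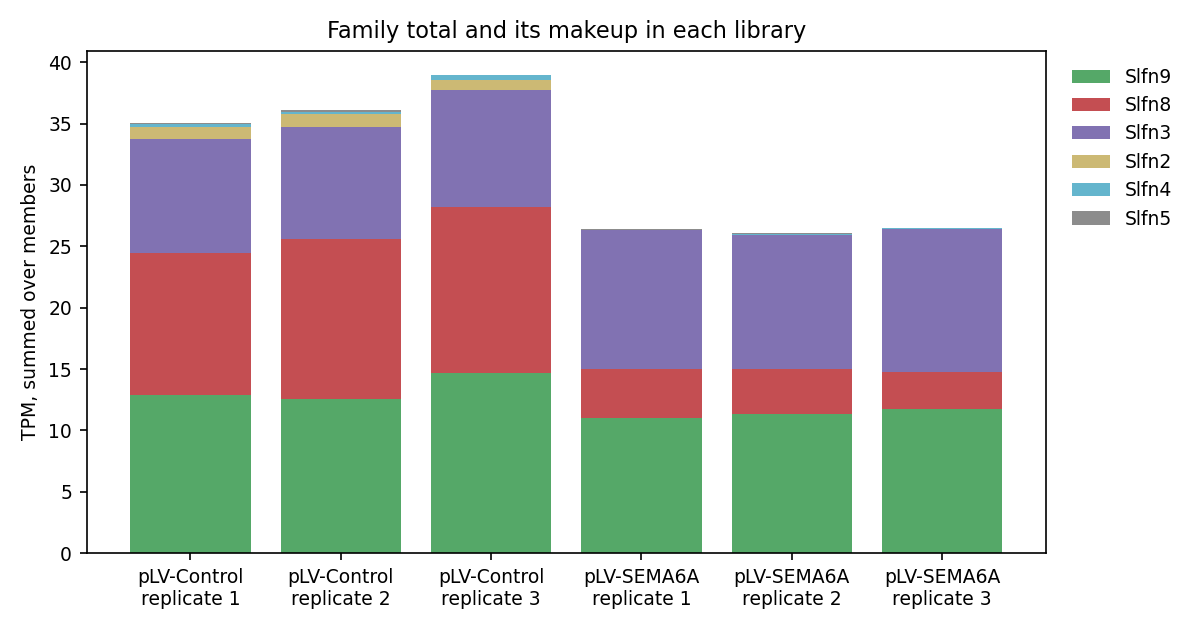
Stacked bars of the TPM of each Schlafen member in each library, on a linear axis from 0. The bars reach 35.1 to 39.0 TPM in pLV-Control and 26.1 to 26.5 TPM in pLV-SEMA6A, and the layer of Slfn8 is the one that shrinks most.

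The family was set beside genes of the interferon response, from lists chosen with earlier results of these data known. Of 21 interferon-induced reference genes, 20 were tested and 20 were downregulated DEGs, with a median log2 fold change of −2.25, while the median of all genes tested was −0.06. Oas2, Oas3 and Oas1a, which are oligoadenylate synthetases, had the lowest values, at −3.97, −3.92 and −3.67. Slfn8 lay within the range of these genes, with 13 of the 20 lower and 7 higher than its −1.59. Its level was low among them, since 19 of the 20 had a higher mean TPM in pLV-Control. Slfn9 and Slfn3 lay outside the range, which ran from −3.97 to −0.84.

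Of 19 genes from the interferon receptors to their transcription factors, 18 were tested, and 8 were downregulated DEGs and 0 upregulated DEGs, against 10.8% and 5.12% of all genes. Its median was −0.40 on the log2 scale. The largest falls were those of Irf7, a factor that drives interferon genes (−3.13), of Usp18, a brake on the receptor (−2.27), and of Stat2, a subunit of the factor that binds the ISRE (−1.71). Ifnar2, a chain of the type I interferon receptor, fell by 0.64 on the log2 scale. Jak1, the kinase bound to this chain, had a log2 fold change of 0.19 with an adjusted p of 0.00231 from limma, below the minimum fold change. It was the 1 gene of the list that was higher at an adjusted p under 0.05, against 16 lower. Among other kinases of the list, Tyk2 was a downregulated DEG (−0.88), and Jak2 was lower but not a DEG (−0.32).

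**Figure D4:**
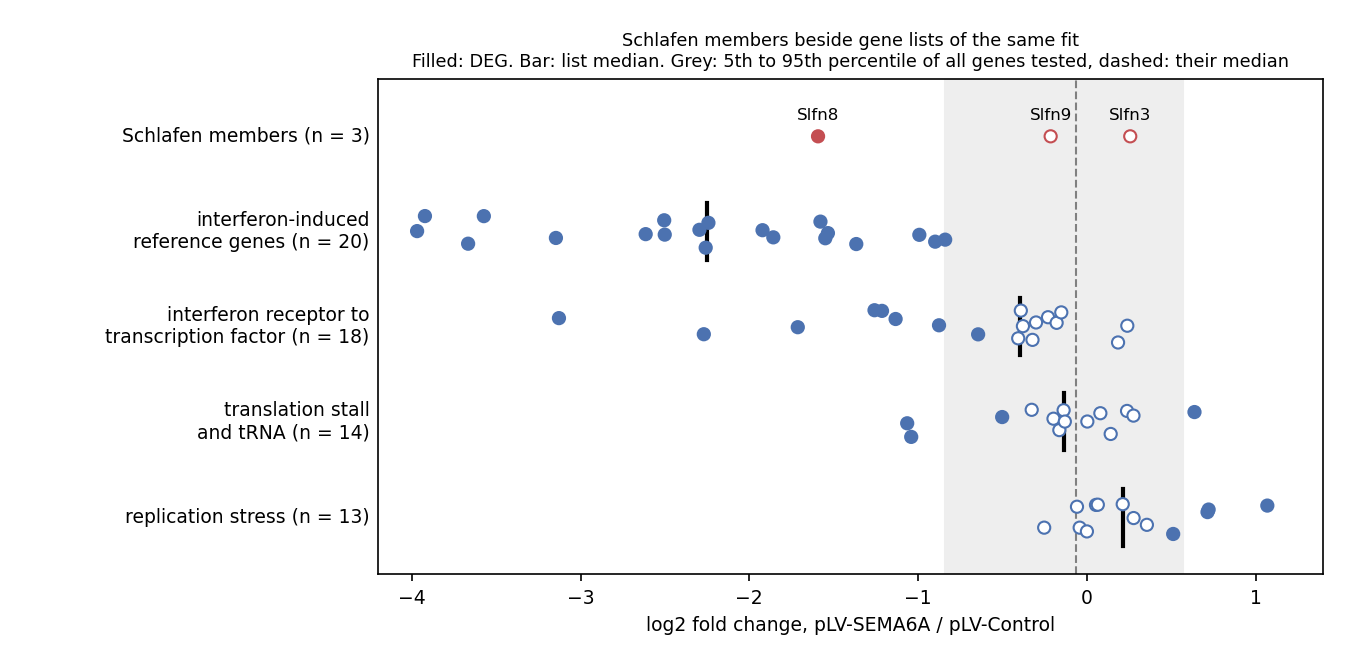
The log2 fold change of each tested gene (points) by list, with filled points for DEGs and black bars for the median of each list other than the Schlafen members. The grey band spans the 5th to 95th percentile of all genes tested, from −0.84 to 0.57, and Slfn8 lies left of it among the interferon-induced genes while Slfn9 and Slfn3 lie within it.

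Genes of the processes in which Schlafen proteins act showed a mixed picture. Of 15 genes for stalled translation and tRNA cleavage, 14 were tested, with a median log2 fold change of −0.13. There were 3 downregulated DEGs and 1 upregulated DEG, against 10.8% and 5.12% of all genes tested. The downregulated genes included Eif2ak2, the RNA-activated kinase PKR (−1.06), and Gtpbp2, which helps to rescue stalled ribosomes (−0.50, or −0.41 with libraries centred on their median, where it was no longer called). The upregulated gene was Rnh1, an inhibitor of RNases (0.64). The 3 lower calls became 2 without pLV-Control library 2, pLV-SEMA6A library 1 or pLV-SEMA6A library 3. Of 13 genes of the replication stress response, all tested, 0 were downregulated and 4 upregulated DEGs, against 5.12% of all genes, with a median of 0.21. Dhx9, an RNA and DNA helicase, rose by 1.07 on the log2 scale, and Mcm3, a subunit of the replicative helicase, rose by 0.72. The 4 higher calls became 3 without pLV-Control library 2 or pLV-SEMA6A library 3.

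Since Schlafen genes are high in blood cells, markers of other cell types were read in the same libraries. The 12 haematopoietic markers summed to between 1.15 and 2.53 TPM in pLV-Control and between 0.940 and 1.80 TPM in pLV-SEMA6A, with Cd68 the highest. Of these, 6 were listed at 0 in every library, among them Cd3e, Itgam and Adgre1. Ptprc, which marks nearly all white blood cells, averaged 0.0133 TPM in the controls and was listed at 0 in all pLV-SEMA6A libraries. The 3 endothelial markers summed to at most 0.150 TPM. The haematopoietic sums lay below the level of Slfn8 in any library and above that of Slfn2 and Slfn4 in the same group. Lgals4 of the colon list was a downregulated DEG (−1.24, adjusted p = 0.00760 from limma). The part of these markers in the results was not tested.

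The position of the members was compared with their values. In GENCODE M21, in which all 7 were found, the cluster lies on chromosome 11, with Slfn8 and Slfn9 side by side on the minus strand and the other 5 members on the plus strand. Within 500 kb of the cluster, 53 genes without a Schlafen name were listed and 15 were tested, of which 2 were downregulated and 2 upregulated DEGs, with a median log2 fold change of −0.10. Of all genes tested, 10.8% were lower and 5.12% higher, so 2 of 15 lower is near the background. The 2 of 15 higher are a larger share than among all genes, though from few genes. No tested gene without a Schlafen name lay inside the cluster. The called neighbours differed in direction. Nle1, which acts in ribosome assembly, rose by 0.56 on the log2 scale, with 30.9 ± 1.43 TPM without and 46.1 ± 4.74 TPM with SEMA6A (SD, n = 3 each). Taf15, an RNA-binding protein, had a log2 fold change of 0.74, and Heatr6 one of −0.76. Ccl5, an interferon-induced chemokine beyond the far end of the cluster, had the largest change of the region, at −2.94, with 533 ± 12.99 TPM without and 68.7 ± 6.32 TPM with SEMA6A (SD, n = 3 each).

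**Figure D5:**
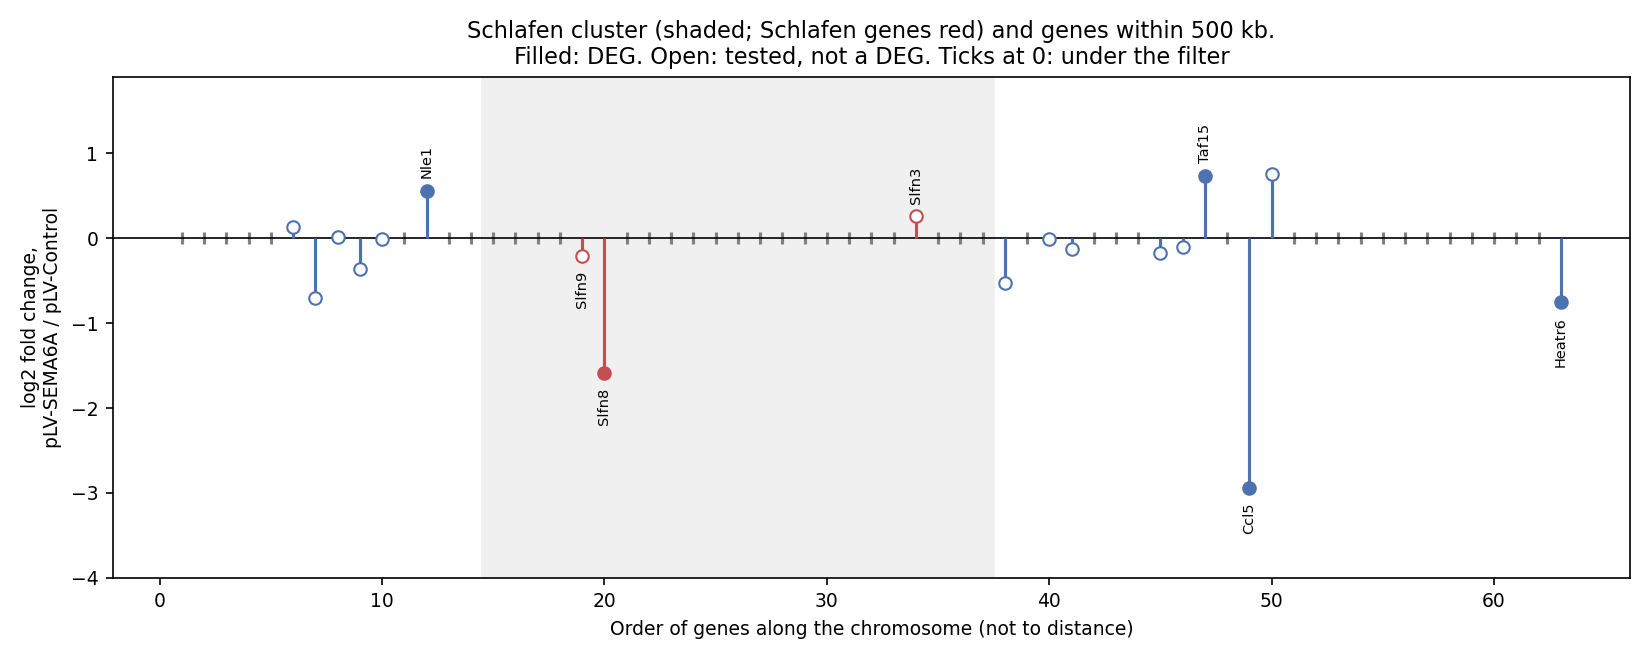
The log2 fold change of tested genes in their order along the chromosome, not to distance, with the Schlafen cluster shaded and Schlafen genes in red. Filled points are DEGs, open points tested genes that were not DEGs (named only for Schlafen genes), and ticks at 0 genes below the filter. Slfn8, at −1.59, stands beside Slfn9, at −0.21, and Ccl5, at −2.94, is the lowest gene of the region.

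The genes most like Slfn8 in pattern were sought among 8183 other genes that averaged 10 TPM or more. Likeness was the root mean square distance between profiles of log2(TPM + 1) over the 6 libraries, each taken as the difference from the gene's pLV-Control mean. With only 2 groups, this mostly picks genes with a log2 fold change near that of Slfn8. The nearest were Herc6, the ligase that joins ISG15 to proteins, at a distance of 0.0804, Ly6e, a membrane protein that affects virus entry, at 0.0964, and Ifi203, a DNA-binding protein of the interferon-induced Ifi200 family, at 0.0990. Their log2 fold changes were −1.61, −1.61 and −1.54.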

How the data were processed

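Poly-A-selected mRNA of 3 pLV-Control and 3 pLV-SEMA6A libraries was sequenced (Illumina). The files deposited by the authors give TPM per gene and library with 2 decimals, and the group means, which were not used. The submitters' processing notes name HISAT, Bowtie2, RSEM and mm39, without roles. Counts were not analysed here, so DESeq2, which the supplement names, was not run.

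limma 3.58.1 in R 4.3.3 was fitted with the trend option on log2(TPM + 1), with the group as the only term, over all genes averaging 1 TPM or more, with Benjamini-Hochberg adjustment. The scripts were tested on simulated data. Alternatives changed the pseudocount, filter, threshold, trend, centring or block, or left out 1 library. A symbol with several identifiers was taken from the one with the highest mean TPM. The genes named by rule were the members, other Schlafen-named genes, at most 3 called genes per direction and list, called neighbours within 500 kb and the 3 nearest profiles. Members and lists were chosen with earlier results of these data known. Ifnar2, Jak1, Jak2, Tyk2 and Gm11427 were named after their values were seen. So were markers other than the highest of each list and the genes named for an ISRE core. Promoters came from RefSeq and transcripts from GENCODE M21, both on GRCm38, matched by symbol or identifier. Some genes of the lists are counted but not reported here by name.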

Additional observations from a re-analysis of the deposited data

How the results depend on the processing

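Slfn8 remained a downregulated DEG under all 14 alternatives fitted to it, with a log2 fold change between −1.81 and −1.50 and an adjusted p from limma of at most 0.00177. The sum of Slfn8 and Slfn9, fitted in place of both, had a log2 fold change of −0.77. With single libraries left out, Slfn8 alone ranged from −1.67 to −1.50. Slfn3 ranged from 0.24 to 0.28 and Slfn9 from −0.25 to −0.15 in the same fits. Without a minimum fold change, Slfn3 (0.26) and Slfn9 (−0.21) were also called, so that 2 members were lower and 1 higher, and 3523 of all genes were lower and 2436 higher. When the minimum was 1 on the log2 scale, 304 genes were lower and 81 higher. Without the filter on low values 2 members were lower. With libraries centred on their median 1002 genes were higher across the table. Leaving out single libraries gave 1280 to 1346 lower and 616 to 631 higher genes.

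Libraries with the same replicate number were no more alike than others, with correlations of their deviations from −0.08 to −0.02. The labels name no shared preparation. These correlations cannot settle whether there was one, because deviations from a mean of 3 libraries are tied to each other. With the replicate number as a block, the log2 fold change of Slfn8 was −1.59 (adjusted p = 0.00177 from limma), that of Slfn3 0.26 (0.0340) and that of Slfn9 −0.21, with an adjusted p of 0.0624 from limma. The block gave 1 member lower and 0 higher. Slfn9 also lost the adjusted threshold without the filter on low values (0.102). The low members rest on values near the 2 decimals of the table, and depth is unknown.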

Other observations

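Gm11427, an annotated pseudogene between Slfn3 and Slfn14, was read because it shares sequence with 3 Schlafen members, and it was chosen after its values were seen. It was at 2.11, 0.980 and 1.16 TPM in control libraries, against 0.220, 0.290 and 0.250 TPM with SEMA6A. The groups did not overlap, as was true of 58.5% of the genes that passed the filter. The mean of Gm11427, 0.835 TPM, was below the filter. In the fit without the filter its adjusted p was 0.0172 from limma, and the share of all genes under 0.05 there was not counted. Its stretches make up 10.8% of those of Slfn3, 8.72% of those of Slfn4 and 2.88% of those of Slfn2.

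The ISRE core that Slfn8 and Slfn9 share was also counted in the promoter windows of the gene lists. The core was present in 3.99% of all genes with a window. It was found in 11 of the 17 interferon-induced reference genes with a window, among them Isg15, Rsad2 and Bst2, and in 3 of the 17 genes from the interferon receptors to their transcription factors, which were Irf2, Socs1 and Stat2. Eif2ak2 was the 1 gene of the translation stall list with the core, and Chek1 the 1 gene of the replication stress list. Among the Schlafen members, the core stood in the windows of Slfn8, which was a DEG, of Slfn9, which was not, and of Slfn5, which was below the filter.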
